A study of Mus musculus with 2 samples.

Results

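The 35 genes described here mark endothelial cells, the cells that line blood and lymphatic vessels, or regulate their identity. They were taken by symbol from a fixed list, which was chosen with earlier results of these data known. They were matched to Ensembl identifiers through GENCODE, and all 35 were found among the 55401 genes of the deposited tables. The samples were pituitaries of mouse embryos at day E12.5, with 1 library of wild-type embryos and 1 library of embryos carrying the Dyrk2 knockout (Dyrk2-/-). Dyrk2 encodes a protein kinase, and the title of the series links primary cilia to cell-type determination and to the growth of vessels in the pituitary. The sources used here do not give the strain, the number of embryos in a library, how the Dyrk2 allele was made or the cells in which it was lost.

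Endothelial identity is set by transcription factors of the ETS family, such as Erg and Fli1, and of the SoxF family, which act on the enhancers of genes for junctions, surface glycoproteins and signalling receptors. Vessels of arterial, venous, capillary and lymphatic type then use different subsets of these genes. The anterior pituitary of the adult is supplied by fenestrated capillaries, whose pores are closed by diaphragms made of the Plvap protein. At E12.5 the vessels are still growing.

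Levels are given as FPKM, the fragments per kilobase of exon scaled to all fragments counted in genes, so they can be compared between genes. The libraries held 20045125 and 20115764 counted fragments, wild type first, and every pair of values below is given in that order. With 1 library per genotype there was no replicate error and no test. All 95% intervals are for counting error and leave out any variation among embryos or between preparations. In bulk tissue, fewer endothelial cells and less RNA per endothelial cell cannot be told apart. Dyrk2 itself (chromosome 10, 118855603 to 118870209, GRCm38) measured 11.5 and 1.93 FPKM, 16.8% of the wild-type level in the knockout library. The libraries also differed in the sexes of their embryos: Xist measured 74.98 and 14.8 FPKM, and the Y-linked gene Ddx3y 5.83 and 14.95 FPKM. None of the 35 genes is on a sex chromosome, and the part of this difference in the results was not tested.

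The sequence of 3 promoters is shown for members at the extremes of the comparison that had an entry in the RefSeq promoter table (GRCm38.p6): Stab1, with the largest log2 ratio, Esm1, with the smallest, and Cldn5, the most expressed of those with an entry. Each is the 250 bases before the annotated start, 5′ to 3′ on the strand of the gene, and capitals mark any match to the ETS motifs AGGAAG and CCGGAA or to the SOX motif ACAATG on either strand. The windows are chr14:31168642-31168891 on the minus strand for Stab1, chr13:113209409-113209658 on the plus strand for Esm1 and chr16:18776597-18776846 on the plus strand for Cldn5.
Stab1: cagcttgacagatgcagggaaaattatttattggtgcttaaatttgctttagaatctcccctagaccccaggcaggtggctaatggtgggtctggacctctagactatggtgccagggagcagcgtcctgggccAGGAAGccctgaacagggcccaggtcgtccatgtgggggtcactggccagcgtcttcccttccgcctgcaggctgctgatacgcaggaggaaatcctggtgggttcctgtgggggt
Esm1: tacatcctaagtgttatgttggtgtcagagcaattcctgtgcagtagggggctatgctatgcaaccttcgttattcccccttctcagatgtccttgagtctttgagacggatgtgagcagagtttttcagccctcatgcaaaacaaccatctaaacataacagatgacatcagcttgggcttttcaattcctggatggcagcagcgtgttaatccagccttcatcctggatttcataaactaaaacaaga
Cldn5: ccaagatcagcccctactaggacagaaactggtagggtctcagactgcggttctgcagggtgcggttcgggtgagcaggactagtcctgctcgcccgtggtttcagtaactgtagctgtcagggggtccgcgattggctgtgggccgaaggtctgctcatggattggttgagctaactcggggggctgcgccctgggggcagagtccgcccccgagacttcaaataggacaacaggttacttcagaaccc

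Stab1 held 1 AGGAAG, starting 116 bases before its start (position -116), and the other two windows held none of the 3 motifs. Of the 35 members, 16 had an entry in the table, with 21 promoters between them. AGGAAG was in 12 of these 21 promoters (57.1%), from 11 genes, against 29.5% of all 32851 promoters. CCGGAA was in 1 of the 21 (4.76%), in Adgrl4, against 12.03% of all, and ACAATG in 1 (4.76%), in Erg, against 10.7%. Promoters of the same gene are not independent, and a match is a description of letters, not of binding.

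The endothelial genes were close to level between the genotypes, with a lean towards higher values in the knockout library. Of the 35 members, 32 reached 1 FPKM in either library. The 3 others were Gpr182, Lyve1 and Stab2, and Esm1 passed only through its wild-type level. Of the 32, 1 was at least 1.5-fold higher (2.06% of all 14000 genes of at least 1 FPKM in 1 library were) and 0 were at least 1.5-fold lower (4.56% of all genes), counted after 0.5 FPKM was added to both values. With 0.1 FPKM added, 3 were at least 1.5-fold lower, and as plain ratios Esm1, Sox17 and Ptprb were. The log2 ratio of knockout over wild type was above 0 for 21 (45.7% of all genes) and below 0 for 11 (53.7% of all genes). The median log2 ratio was 0.10, and that of all 14000 genes was -0.02. Over all 35 members without the level filter, 22 ratios were above 0, 13 below, and the median was 0.08. The summed level of the 35 was 219 and 241 FPKM.

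Counting error was smaller than many of these differences. The members that passed were counted from 51 to 2032 fragments in the wild-type library and from 28 to 2373 in the knockout library. The 95% interval of the ratio lay above 1 for 12 of the 32 (17.7% of all genes) and below 1 for 6 (22.3% of all genes), and held 1 for 14. Among the 11922 genes with a mean level in the range of the members, 14.6% had intervals above 1 and 23.0% below. Across the 32 members log2 FPKM correlated between the libraries at Pearson's r = 0.964 and Spearman's rho = 0.961, a description across genes that share libraries and are not independent replicates.

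**Figure D1:**
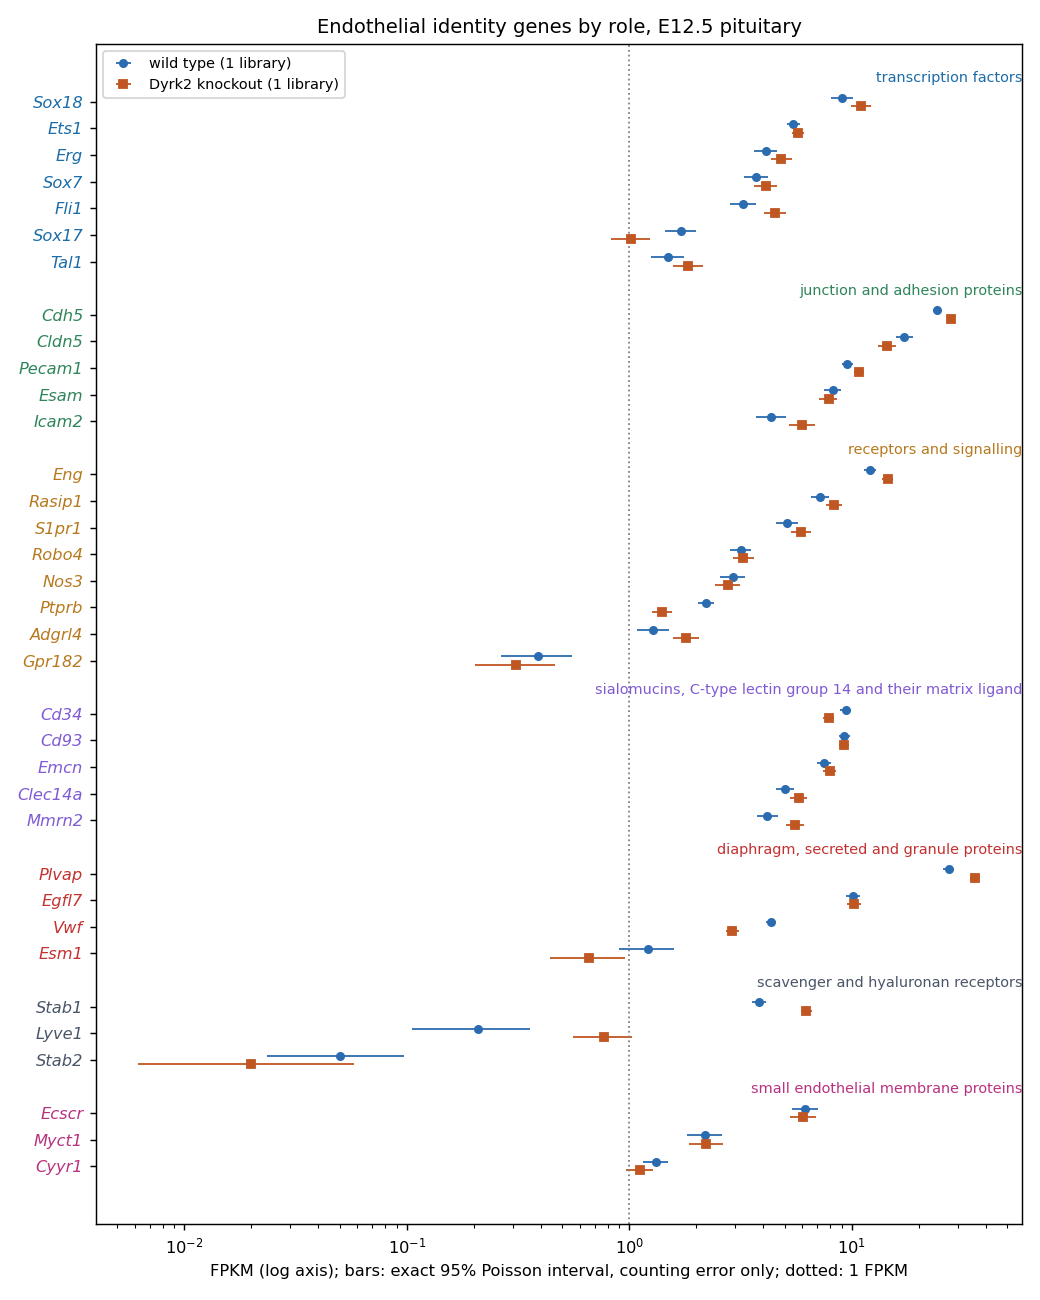
FPKM of the 35 endothelial genes, grouped by role, on a log axis. Blue circles are the wild-type library and orange squares the knockout library (1 library each), bars are exact 95% Poisson intervals for counting error, and the dotted line marks 1 FPKM. The pairs lie close together for most genes, Plvap and Cdh5 are the most abundant, and Gpr182, Lyve1 and Stab2 lie below 1 FPKM in both libraries.

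Of the transcription factors, 6 of 7 had a log2 ratio above 0 (45.7% of all genes) and Sox17 was the exception. The interval lay above 1 for 2 (17.7% of all genes), below 1 for 1 (22.3% of all genes) and held 1 for 4. Erg, an ETS factor that maintains endothelial identity, measured 4.12 and 4.82 FPKM, a ratio of 1.17 whose interval (0.997 to 1.38) held 1. Fli1, its close relative on chromosome 9 (32422204 to 32542861), measured 3.25 and 4.52 FPKM, 1.39-fold higher in the knockout library (1.17 to 1.66). Ets1, another ETS factor that mesenchyme and blood cells also express, measured 5.47 and 5.72 FPKM. The 3 ETS genes were thus all higher in the knockout library by their point values, and the interval excluded 1 for Fli1 alone.

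The SoxF factors, related proteins with overlapping tasks in vessel growth, split. Sox18, needed for early lymphatic endothelium, measured 9.05 and 11.05 FPKM, 1.22-fold higher (1.04 to 1.43). Sox7 measured 3.72 and 4.11 FPKM (ratio 1.11, 0.927 to 1.32). Sox17, the member of the family tied to arterial identity, measured 1.70 and 1.02 FPKM, 1.67-fold lower (1.29 to 2.17), from 163 and 98 fragments. Sox17 (chromosome 1, 4490931 to 4497354) shares 804 exon bases with an antisense transcript, Gm37587, which measured 0.02 and 0 FPKM. Its interval lay wholly on the other side of 1 from that of Sox18. Tal1, a helix-loop-helix factor of blood and endothelial precursors, measured 1.49 and 1.84 FPKM (ratio 1.23, 0.973 to 1.56).

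The genes of cell junctions and adhesion included the abundant Cdh5 and Cldn5 and went both ways. Cdh5 (VE-cadherin, chromosome 8, 104101625 to 104144511), the cadherin of endothelial adherens junctions, measured 24.1 and 28.1 FPKM, a ratio of 1.16 (1.10 to 1.24). Pecam1 (CD31), an adhesion molecule also carried by platelets and leukocytes, measured 9.54 and 10.8 FPKM, 1.13-fold higher (1.04 to 1.22). Icam2, a ligand for leukocyte integrins, measured 4.35 and 5.98 FPKM, 1.37-fold higher (1.12 to 1.69). These 3 of the 5 genes had intervals above 1 (17.7% of all genes).

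The tight-junction gene was the exception in this class, with an interval below 1. Cldn5, the main claudin of endothelial tight junctions, measured 17.2 and 14.4 FPKM, 1.19-fold lower in the knockout library (1.045 to 1.36). Esam, an adhesion molecule at the same junctions, measured 8.20 and 7.87 FPKM, and its interval held 1 (ratio 0.961, 0.842 to 1.10).

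Among receptors and signalling proteins, 3 of the 7 that passed the filter had intervals above 1 (17.7% of all genes) and 1 below (22.3% of all genes). Eng (endoglin), a co-receptor for BMP ligands in endothelium, measured 12.1 and 14.5 FPKM, 1.203-fold higher (1.10 to 1.31). Rasip1, a GTPase effector needed to open vessel lumens, measured 7.21 and 8.35 FPKM (ratio 1.16, 1.02 to 1.31). It shares 654 exon bases with Izumo1 on the same strand, at 0.10 and 0.13 FPKM, and 498 with the antisense transcript A030001D20Rik, at 4.79 and 3.48 FPKM. The assignment of fragments in such overlaps is not given in the sources used here.

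Adgrl4, an adhesion G protein-coupled receptor of growing vessels, measured 1.28 and 1.80 FPKM, 1.41-fold higher (1.14 to 1.76). S1pr1, the receptor through which sphingosine 1-phosphate steadies vessels, measured 5.11 and 5.94 FPKM with an interval that held 1 (ratio 1.16, 0.997 to 1.36). Robo4, an endothelial receptor of the Roundabout family, measured 3.18 and 3.26 FPKM (ratio 1.03, 0.881 to 1.20). Nos3, the endothelial nitric oxide synthase, measured 2.92 and 2.77 FPKM (ratio 0.947, 0.787 to 1.14). Both intervals held 1. The atypical chemokine receptor gene Gpr182 was under the filter in both libraries, at 0.39 and 0.31 FPKM.

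Of the receptor and signalling genes that passed the filter, Ptprb had the log2 ratio furthest from 0. It encodes VE-PTP, a phosphatase that acts on the Tek receptor and on VE-cadherin. Ptprb (chromosome 10, 116275523 to 116389535) measured 2.22 FPKM (2.04 to 2.40) and 1.41 FPKM (1.27 to 1.56), 1.57-fold lower in the knockout library (1.38 to 1.80). Of the genes for these substrates, Cdh5 had a ratio of 1.16 and Tek measured 8.21 and 7.74 FPKM (ratio 0.944, 0.852 to 1.05).

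Of the sialomucin and C-type lectin genes, Cd93 and Clec14a encode related surface lectins that bind Mmrn2, a protein of the vessel matrix. Mmrn2 measured 4.18 and 5.55 FPKM, 1.33-fold higher (1.15 to 1.54). Clec14a measured 5.02 and 5.77 FPKM, 1.15-fold higher (1.01 to 1.31), and Cd93 was level at 9.28 and 9.23 FPKM. The matrix ligand and 1 of its 2 receptors were thus higher by more than counting error, and Cd93 had a ratio of 0.995 (0.919 to 1.08).

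The sialomucin genes went both ways by their point values. Emcn, a sialomucin of capillaries and veins, measured 7.50 and 7.95 FPKM (ratio 1.06, 0.962 to 1.17). Cd34, a sialomucin of endothelium, blood progenitors and some mesenchyme, measured 9.39 and 7.90 FPKM, 1.19-fold lower (1.10 to 1.29).

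Plvap was the most abundant member of all. Its product forms the diaphragms of fenestrae and caveolae. Plvap (chromosome 8, 71497765 to 71511752) measured 27.3 FPKM (25.7 to 29.0) and 35.95 FPKM (34.1 to 37.9), and the 2 intervals did not overlap. It was the member with the largest difference in FPKM, at a ratio of 1.32 (1.22 to 1.43). Cldn5, which with low Plvap marks the barrier type of capillary, was lower in the same library. The level of Cldn5 as a percent of Cdh5 was 71.4% and 51.4%, and that of Plvap 113% and 128%. The list of barrier genes described below did not go 1 way. Of its 5 genes that passed the filter, 2 had intervals above 1 (17.7% of all genes) and 2 below (22.3% of all genes). A change in the type of capillary was not tested.

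Vwf and Esm1 were lower in the knockout library. Vwf (chromosome 6, 125546774 to 125686679), the clotting factor stored in the granules of endothelial cells and platelets, measured 4.34 FPKM (4.12 to 4.58) and 2.91 FPKM (2.73 to 3.10), 1.49-fold lower (1.37 to 1.62). Esm1, a proteoglycan gene of tip cells at the front of growing sprouts, had the lowest ratio of the members that passed, at 1.21 FPKM (0.903 to 1.60) and 0.66 FPKM (0.441 to 0.959). Its 1.83-fold lower level rested on 51 and 28 fragments and its interval was wide (1.13 to 3.01). Vwf was counted from many more fragments, 1398 and 940.

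Egfl7, a secreted factor that guides the formation of vessel tubes, was level, at 10.1 and 10.2 FPKM (ratio 1.01, 0.909 to 1.12). Its locus (chromosome 2, 26580014 to 26593120) also holds the hairpin of the endothelial microRNA miR-126a, whose mature sequence is shown because this host gene is among the most even of the members. The mature product from chr2:26591402-26591423 on the plus strand of GRCm38.p6 is given by RefSeq, with its seed, bases 2 to 8, in capitals.
mmu-miR-126a-3p: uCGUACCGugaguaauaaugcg
The level of the mature microRNA was not measured in these libraries, and the Mir126a gene is listed at 0 in both.

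Stab1 and Lyve1 had the largest ratios of the 35 genes. Stab1 (chromosome 14, 31139013 to 31168641), a scavenger receptor of sinusoidal endothelium and of some macrophages, measured 3.84 FPKM (3.58 to 4.12) and 6.25 FPKM (5.91 to 6.60), 1.63-fold higher in the knockout library (1.49 to 1.78). It shares 112 exon bases with Nt5dc2 on the opposite strand, a gene at 125.71 and 134.11 FPKM. The sources used here do not give the assignment of fragments in this overlap. Lyve1, a hyaluronan receptor of lymphatic endothelium and of some macrophages, measured 0.21 FPKM (0.106 to 0.358) and 0.77 FPKM (0.559 to 1.03) from 12 and 45 fragments. Its ratio of 3.74 (1.94 to 7.76) was the larger, at a level below the 1 FPKM filter. Stab2, the paralog of Stab1 in liver sinusoids, measured 0.05 and 0.02 FPKM from 9 and 4 fragments.

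Stab1 and Lyve1 are shared with macrophages, so macrophage markers were set beside them. Of 12 listed macrophage genes 10 passed the filter, with a median log2 ratio of -0.21 and summed levels of 39.5 and 35.3 FPKM, and none was at 0 in either library. The complement gene C1qb measured 7.38 and 7.54 FPKM, C1qa 6.33 and 5.21 FPKM, and the signalling adaptor gene Tyrobp 5.31 and 3.20 FPKM. Csf1r, the receptor on which macrophages depend, was 1.42-fold lower (1.23 to 1.65), whereas Mrc1, the mannose receptor gene, which lymphatic endothelium also expresses, was 1.26-fold higher (1.05 to 1.53). By point value, 4 of the 10 macrophage genes were higher in the knockout library (45.7% of all genes) and 6 were lower (53.7% of all genes). The part of macrophages in the values of Stab1 and Lyve1 was not tested.

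The small membrane proteins did not differ beyond counting error, which does not show that they were equal. Ecscr, a surface protein of endothelium, measured 6.18 and 6.04 FPKM, Myct1 2.19 and 2.22 FPKM, and Cyyr1 1.32 and 1.12 FPKM (ratio 0.848, 0.699 to 1.03). All 3 intervals held 1.

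**Figure D2:**
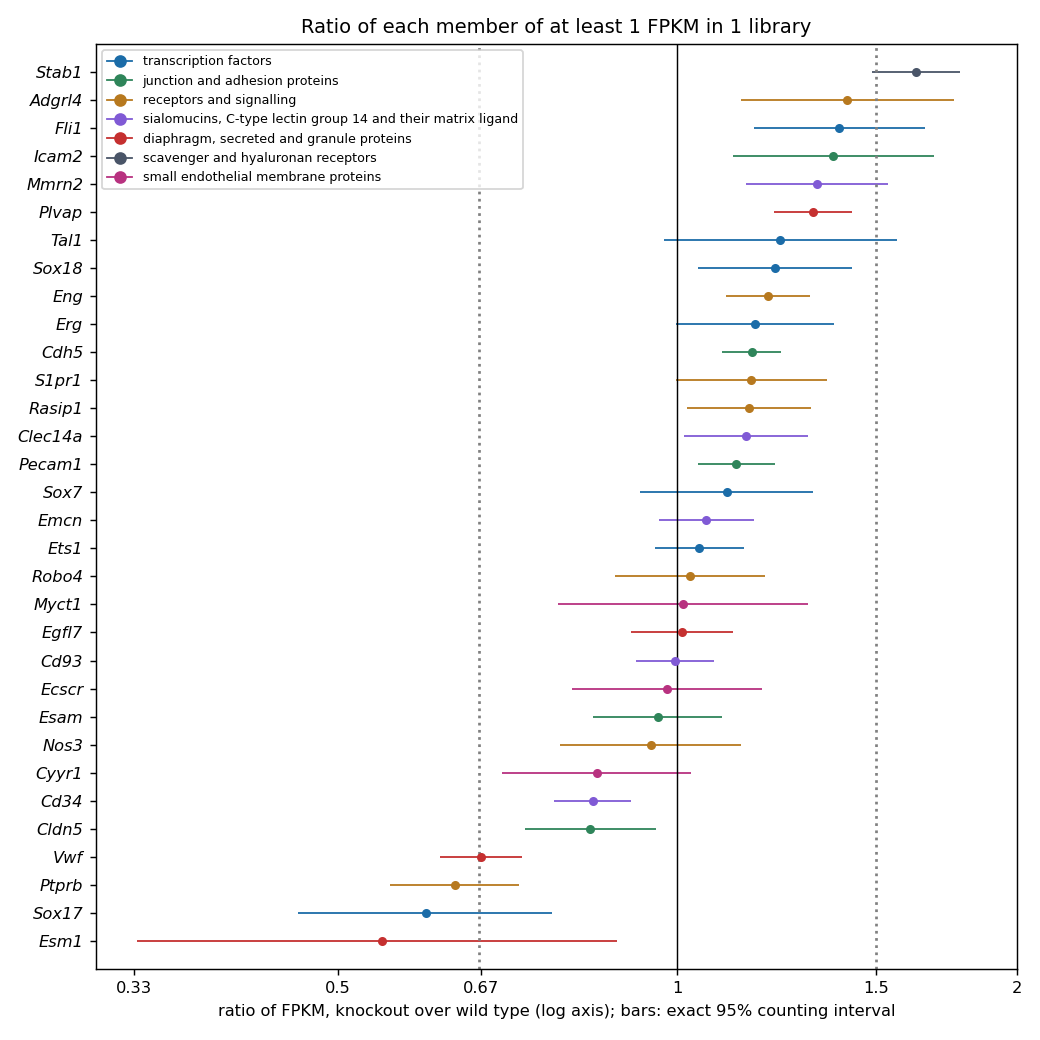
Ratio of FPKM, knockout over wild type, for the 32 members of at least 1 FPKM in 1 library, in order, on a log axis. Points are plain ratios from 1 library per genotype, coloured by role, bars are exact 95% intervals for counting error, and dotted lines mark 1.5-fold. Most ratios lie between 1 and 1.5, Stab1 is highest, and Vwf, Ptprb, Sox17 and Esm1 form the low end.

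To set the members against a common endothelial gene, each was also expressed as a percent of Cdh5 in the same library. Of 31 other members that passed, 2 were higher relative to Cdh5 in the knockout library with an approximate 95% counting interval above 1 (2.26% of all 13899 such genes counted in both libraries), 11 were lower (61.5% of those genes) and 18 had intervals that held 1. Cdh5 and Pecam1 were themselves higher in the knockout library, at ratios of 1.16 and 1.13, so dividing by either lowers the ratio of every gene by the same factor. The 2 higher were Stab1, at 15.9% and 22.3% of Cdh5, and Plvap. The lowest were Esm1, at 5.02% and 2.35% of Cdh5, 2.13-fold lower (1.34 to 3.39), and Sox17, at 7.05% and 3.63%, 1.94-fold lower (1.502 to 2.51). Ptprb, at 9.20% and 5.02%, was 1.83-fold lower (1.59 to 2.11), and Vwf, at 17.99% and 10.4%, 1.74-fold lower (1.57 to 1.92). Set against Pecam1 instead, the counts were 4 higher (2.62% of those genes), 9 lower (48.1% of those genes) and 18 holding 1, and these same genes stood at 2.06-fold (Esm1), 1.88-fold (Sox17), 1.78-fold (Ptprb) and 1.68-fold (Vwf) lower. Esm1 passed the filter only through its wild-type level, and with 1 library per genotype these values have no measure of the variation beyond counting error.

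**Figure D3:**
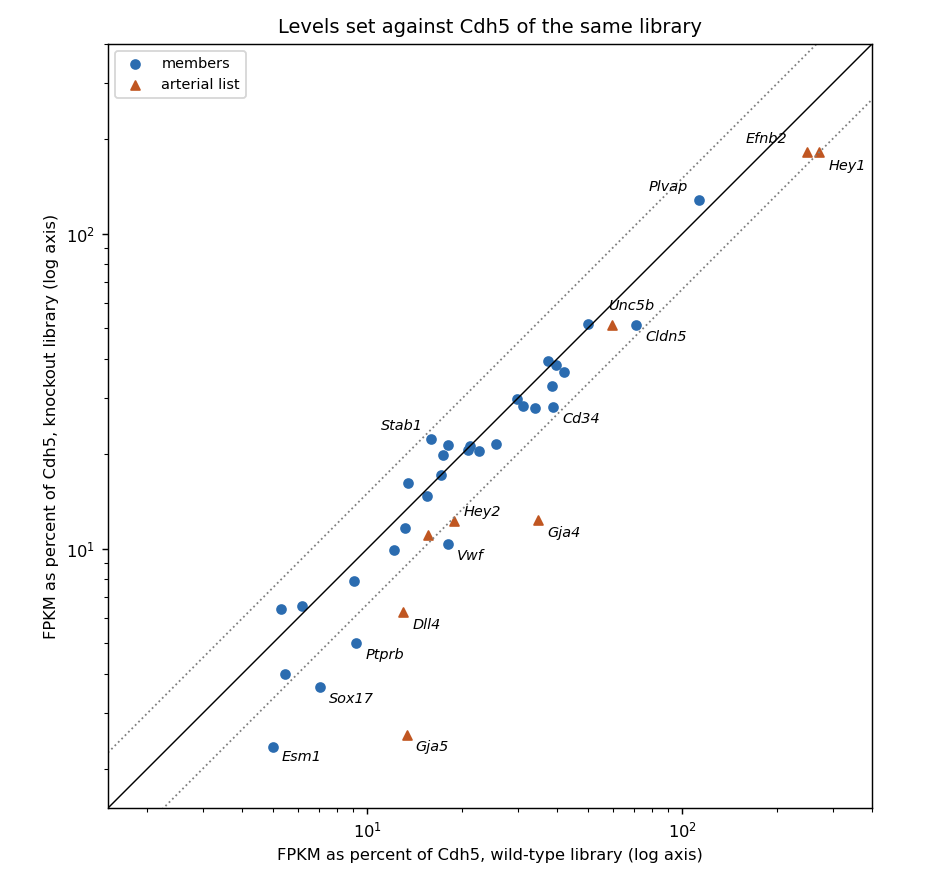
FPKM as a percent of Cdh5 in the same library, wild type on the horizontal and knockout on the vertical axis, both log, for the members (blue circles) and the genes of the arterial list (orange triangles). The solid line marks equality and the dotted lines 1.5-fold; Gja5, Gja4, Dll4, Hey2, Esm1, Sox17, Ptprb and Vwf lie below the lower dotted line, Hey1 lies on it, and Stab1 lies furthest above the solid line.

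Other genes of endothelium were taken from a list of 68, of which 56 passed the filter. Of those, 2 were at least 1.5-fold higher (2.06% of all genes), 6 at least 1.5-fold lower (4.56% of all genes) and 48 within 1.5-fold, with a median of 0.03. The interval lay above 1 for 12 (17.7% of all genes), below 1 for 21 (22.3% of all genes) and held 1 for 23. For the 32 members these counts were 12, 6 and 14. The growth factor and peptide receptors had a median of 0.18 over 10 genes, with Kdr, the main VEGF receptor, at 8.91 and 10.2 FPKM and Tie1 at 10.9 and 13.0 FPKM. Aplnr, the apelin receptor of venous and sprouting endothelium, measured 13.6 and 19.7 FPKM. Genes of the endothelial cytoskeleton, junctions and surface, such as Tspan18 at 6.38 and 6.58 FPKM, had a median of 0.14 over 19 genes. Of the 19, 1 had an interval above 1 (17.7% of all genes), 2 had intervals below 1 (22.3% of all genes) and 16 held 1. Rhoj, a small GTPase, was the lowest, 1.67-fold lower (1.47 to 1.91). The medians of the receptor list and of the cytoskeleton, junction and surface list lay near that of the members, 0.10.

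Arterial genes, from a list chosen with earlier results of these data known, had a different median from the members. Of 9 listed, 8 passed the filter and 7 of those had intervals below 1 (22.3% of all genes), none above, with a median log2 ratio of -0.36. Gja5, the connexin of arterial endothelium, measured 3.21 and 0.72 FPKM, 4.47-fold lower (3.52 to 5.75), and passed the filter only through its wild-type level. Gja4, another arterial connexin gene, measured 8.41 and 3.45 FPKM, 2.44-fold lower (1.96 to 3.05). Dll4, the Notch ligand of arteries and tip cells, measured 3.13 and 1.76 FPKM, 1.79-fold lower (1.44 to 2.22). Hey1 (65.7 and 50.9 FPKM), Efnb2 (60.0 and 51.0 FPKM) and Unc5b (14.4 and 14.4 FPKM) were the most abundant of the list, and cells other than endothelium also express them.

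Venous, lymphatic and barrier genes were split. Of the venous and lymphatic list 4 of 6 passed, with a median of 0.10. Ephb4, a venous ephrin receptor, measured 48.6 and 52.9 FPKM, and Pdpn, a gene of lymphatics and epithelia, 27.7 and 29.3 FPKM. Nr2f2, a venous and mesenchymal regulator, measured 11.9 and 8.14 FPKM, 1.46-fold lower (1.36 to 1.56). Prox1, the regulator of lymphatic fate, which some epithelia and neurons also express, measured 1.36 and 2.11 FPKM, 1.55-fold higher (1.31 to 1.84). Flt4, the receptor of lymphatic growth factors, is in the receptor list above. It measured 1.98 and 3.76 FPKM, 1.899-fold higher (1.66 to 2.18). Reln of the venous and lymphatic list, under the filter as Lyve1 was, went the other way, at 0.57 and 0.43 FPKM, 1.33-fold lower (1.10 to 1.60). Of the barrier genes 5 of 8 passed, with a median of 0.06: Mfsd2a, a lipid transporter of brain capillaries, measured 1.57 and 3.25 FPKM, 2.06-fold higher (1.54 to 2.78), while Spock2 measured 9.30 and 6.40 FPKM.

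Of the other transcription regulators linked to vessels, 10 of 12 passed the filter, with a median of -0.41 and 7 intervals below 1 (22.3% of all genes). Foxc2, a forkhead factor of arteries, lymphatic valves and mesenchyme, measured 9.83 and 3.81 FPKM, and Foxc1 11.4 and 8.05 FPKM. Gata2, a factor of endothelium, blood and pituitary cells, measured 26.0 and 16.4 FPKM. Elk3, an ETS factor, measured 19.0 and 20.5 FPKM, and Etv2, the ETS factor that starts the endothelial lineage, is listed at 0 in both libraries.

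**Figure D4:**
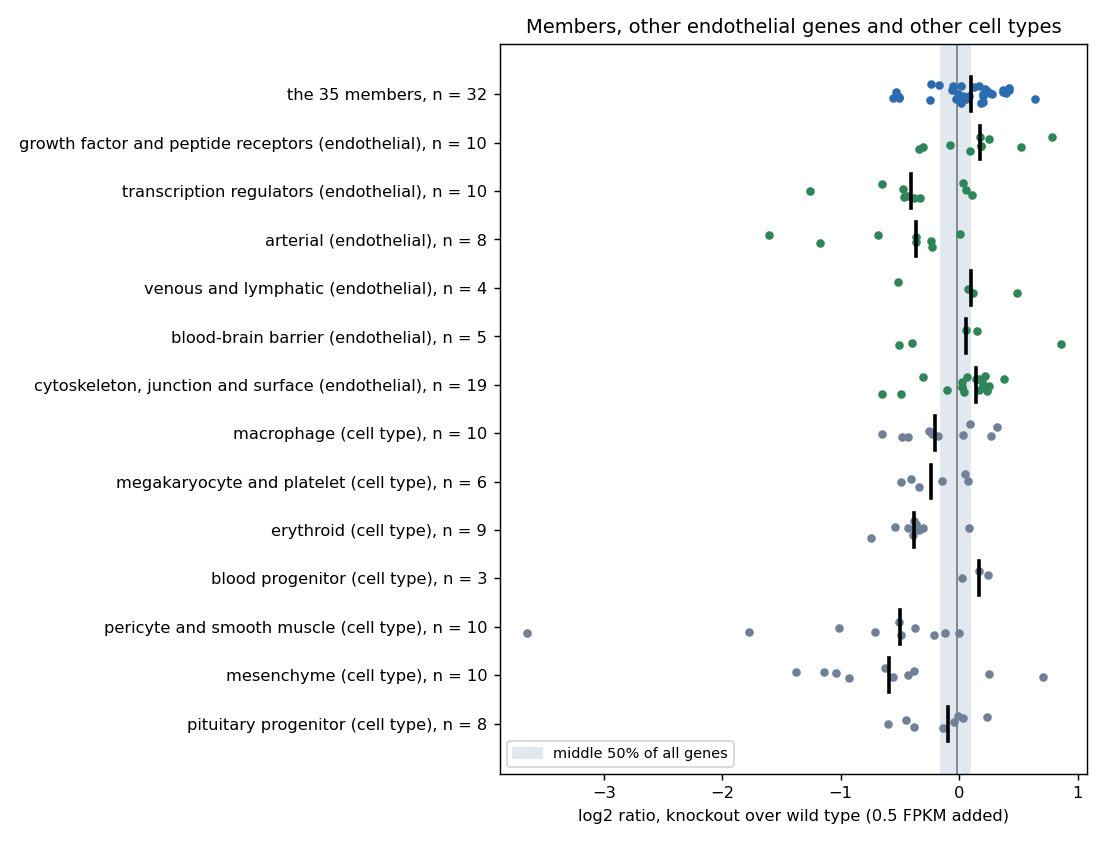
Log2 ratio of knockout over wild type, with 0.5 FPKM added, for the genes of each list that passed the filter; points are genes, black bars are list medians, the grey line is the median of all 14000 genes and the shaded band their middle 50%. The members have a median of 0.10, the arterial list -0.36 and the pericyte and smooth muscle list -0.50.

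Markers of other cells were set beside the members, since some share these genes and others surround vessels. Pericyte and smooth muscle markers had summed levels of 147 and 92.6 FPKM and a median of -0.50 over 10 of 13 genes, with Acta2 at 25.7 and 1.58 FPKM, Tagln 3.93-fold lower (3.13 to 4.98), and Notch3 level at 48.1 and 48.0 FPKM. Higd1b of that list was at 0 in both. Mesenchyme markers had a median of -0.59 over 10 genes and sums of 227 and 150 FPKM, with Col3a1 at 91.7 and 62.1 FPKM. Of the 10, 8 had intervals below 1 (22.3% of all genes) and 2 above (17.7% of all genes). Prrx1 was the highest, at a log2 ratio of 0.71. Platelet markers, which bear on Vwf and Pecam1, had a median of -0.24 over 6 of 10 genes and sums of 23.04 and 20.03 FPKM. Of the 6, 5 had intervals that held 1 and 1 had an interval below 1 (22.3% of all genes). Pf4 measured 9.41 and 8.48 FPKM, Ppbp 4.05 and 4.22 FPKM, and Itga2b 1.99 and 2.12 FPKM. Gp1bb, under the filter, measured 0.14 and 0 FPKM from 6 and 0 fragments. Erythroid markers had a median of -0.38 over 9 of 11 genes, with Hbb-y at 1675 and 1285 FPKM. Blood progenitor markers, which bear on Tal1 and Cd34, had a median of 0.16 over 3 of 5 genes, with Kit at 4.78 and 5.75 FPKM. The part of these cells in the values of the members was not tested.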

How the data were processed

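RNA of E12.5 pituitaries was sequenced as polyA-selected stranded libraries, per the labels' protocols. The authors deposited, per the file headers, the summed exon length and the FPKM of each gene, to 2 decimals. The submitters' processing notes name Cutadapt 1.9.1, HISAT2 2.0.1 and the build GRCm38. The sources used here do not give the counting tool, its use of strand or the annotation.

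Of 55401 genes, 55141 matched GENCODE M21. FPKM times exon length moved in whole fragments: all 1512 and 1372 values checked were whole within 0.1 fragment, for totals of 20045125 and 20115764. Fragments were rounded (uncertain by up to 1.62 for the longest member) and used for exact 95% Poisson and Clopper-Pearson intervals. Ratios to Cdh5 or Pecam1 have approximate log-normal intervals. Genes of at least 1 FPKM in 1 library were kept. Log2 ratios add 0.5 FPKM, which understates changes of low genes, and folds in the text are plain ratios. No count model was used. Python 3.11.15 and scipy 1.17.1 were used, and the steps were tested on simulated data.

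The members and lists were chosen with earlier results of these data known. All members were named, and of each other list the 3 most expressed genes and up to 3 with the largest ratio of at least 1.5-fold, though not each of these is printed. Csf1r, Mrc1, Prox1, Tek, Etv2, Acvrl1, Ramp2, Reln, Prrx1, Xist, Ddx3y and the genes at 0 were added after their values were seen. Alternatives covered pseudocounts, filters, scalings, shared members and backgrounds.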

Additional observations from a re-analysis of the deposited data

How the results depend on the processing

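No paired analysis was possible because each genotype had a single library, and no replicate could be left out. The median log2 ratio of the members stayed above 0 under all alternatives run, from 0.08 (no filter) to 0.18 (filter of 5 FPKM), and that of the arterial genes below 0, from -0.38 to -0.30. The 4 scalings multiplied the knockout library by 0.997 to 1.02. Among the members, they turned the sign only of Cd93 and Ecscr, whose intervals held 1. The background of all genes also moved. Scaling by trimmed mean of log ratios or by upper quartile turned the median of all genes to 0.015 and 0.017. In that order, 22.8% and 23.2% of all genes then had intervals above 1, and 17.8% and 17.5% below. With either of these scalings, 14 members had intervals above 1 and 6 below. The counts by fold depended on how low values were treated. With 0.1 FPKM added, 3 members were at least 1.5-fold lower, with 2 FPKM added 0 were higher, and without the filter 2 were higher. Without the members that blood cells also express, 0 were higher, since Stab1 was left out. With a filter of 5 FPKM, 14 members had log2 ratios above 0 and 5 below, and 10 had intervals above 1 and 2 below. Vwf, Ptprb, Sox17 and Esm1, whose intervals lay below 1, did not reach 5 FPKM in either library and dropped out.

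The share of all genes at least 1.5-fold higher was 0.943% with 2 FPKM added, 0.664% with a filter of 5 FPKM, 1.12% without a filter and 1.08% among protein-coding genes. The share at least 1.5-fold lower was 2.15%, 1.97%, 2.15% and 2.95% in the same order. Without a filter 4.98% of genes had intervals above 1 and 6.87% below, as unexpressed genes then count. The background of genes of at least 200 exon bases and the recomputed medians of the arterial and venous lists were added after the data were examined. Depth limits Esm1, Lyve1, Gpr182 and Stab2 most, each with under 60 fragments in both libraries.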
